A study of Mus musculus with 6 samples.

Results

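The genes examined here encode the chains of collagen, and they were taken as every row of the deposited expression table whose gene symbol has the form of a mouse collagen chain (Col, a type number, a and a chain number). The rule found 44 chain genes among 43548 gene identifiers, and no symbol occurred in more than 1 row. They were measured by mRNA sequencing in Met-1 TripZ-200c cells. Met-1 is a mouse mammary carcinoma line from a late-stage tumor of the MMTV-PyMT model on the FVB/NJ background, and TripZ-200c is a lentiviral vector, also carrying a red fluorescent reporter, that expresses the miR-200c precursor when doxycycline (Dox) is present. The cells are a single clone obtained by sorting on the reporter. MinusDox cells (3 libraries) received the water vehicle and PlusDox cells (3 libraries) received 1 µg/mL Dox, both for 48 h. Every library carries the vector, and no empty-vector library was analysed here, so effects of Dox itself and of the induced miRNA cannot be told apart. The series describes the samples as biological replicates, and the p-values measure the spread between these libraries.

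Collagens are secreted proteins in which 3 chains wind into a triple helix. Fibrillar collagens form the tensile fibers of connective tissue, FACIT collagens sit on the surface of those fibers, type IV collagens build the sheet of the basement membrane, type VI collagen forms beaded microfibrils around cells, and transmembrane collagens stay anchored in the cell surface. Because a trimer needs its own set of chains, the mRNA of partner chains is of interest together. In carcinoma, a collagen-rich matrix is a known companion of epithelial-to-mesenchymal transition (EMT), the program that miR-200c restrains by repressing Zeb1 and Zeb2, transcription factors that silence epithelial genes.

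The mature miRNA is shown because the position of its seed match is what ties a transcript to it by sequence. Capitals mark the seed, bases 2 to 8. The sequence is that of RefSeq (GRCm38.p6, chr6:124718324-124718346, minus strand), and miR-200b-3p and miR-429-3p share the same seed.

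mmu-miR-200c-3p: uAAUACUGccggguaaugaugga

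The complement of that seed, CAGTATT, was searched on the transcribed strand of the longest annotated 3′ UTR of each gene (GENCODE M21, GRCm38). It occurred in 7 of the 44 chain genes and in 4 of the 10 chain genes whose mRNA was high enough to test. Over all 10794 tested genes with an annotated 3′ UTR the share was 16.1%, with a median UTR of 1202 bases against 1437 bases for the 10 chains. The 4 stretches of tested chains are shown with the match in capitals, Col5a1 and Col4a5 because their mRNA fell and Col11a1 and Col8a1, chosen after their values were seen, because theirs did not pass the test. Col5a1 holds it at chr2:28037309-28037338 (plus strand), Col4a5 at chrX:141688995-141689024 (plus strand), Col11a1 at chr3:114220475-114220504 (plus strand) and Col8a1 at chr16:57626557-57626586 (minus strand).

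Col5a1: tgggggcgggaCAGTATTtgaagatcactt

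Col4a5: gtgtaagaagaCAGTATTtgcttagtcttc

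Col11a1: ataatggcataCAGTATTtccaataaaatg

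Col8a1: tcgctaatgaaCAGTATTcattctttgtgc

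The base after the match was T or C in all 4 of these stretches, so none is the longer form of the match that ends in A. Col6a1 and Col6a2 hold no CAGTATT in that UTR. The other chain genes with a match, Col4a6, Col9a2 and Col4a3, lay below the limit for testing. A match is a description of these letters and was not tested as a binding site.

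The values are FPKM, in which the fragments of a gene are scaled to its transcript length and to the mapped reads of the library, so that levels of genes of different length can be compared. The size of the steps between the lowest FPKM values of single-transcript genes put the depth at 11900000 to 19200000 mapped reads, and 16867 to 18012 genes were above 0. A gene was tested where its FPKM averaged 1 or more across the 6 libraries (12879 genes), with limma on log2(FPKM + 0.1), with Benjamini-Hochberg adjustment over all of them and a threshold of 0.05. Fold changes are on that log2 scale. The Mir200c row was listed at 0 in all 6 libraries, so the induction was checked through its targets: Zeb1 stood at 41.0 to 42.3 FPKM in MinusDox and 19.8 to 23.6 FPKM in PlusDox libraries, and Zeb2 at 27.9 to 30.7 and 7.82 to 9.04 FPKM. Of 9 epithelial markers 2 were tested, and Epcam (0.0844 to 0.161 against 3.88 to 4.31 FPKM) and Krt18 (91.2 to 96.4 against 364 to 400 FPKM) were higher with Dox. Epcam averaged 1 FPKM or more only through its PlusDox libraries (means of 0.128 and 4.06 FPKM). Among those not tested, Cdh1 (0.0419 to 0.0776 against 0.554 to 1.24 FPKM), Krt8 and Cldn4 were higher in all PlusDox libraries. Krt14 and Cldn7 overlapped between the groups, and the Cldn7 mean was lower with Dox (0.322 and 0.264 FPKM). Krt5 and Krt19 were at 0 in every library.

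The collagen mRNA of Met-1 TripZ-200c cells came from few chains. Of the 44 chain genes, 10 averaged 1 FPKM or more and were tested, 30 were detected below that limit and 4 (Col19a1, Col6a6, Col13a1 and Col28a1) were at 0 in all libraries. With Dox, 4 chains fell, namely Col6a1, Col6a2, Col5a1 and Col4a5, by 33.6% to 40.0% of their mean FPKM. No chain rose past the threshold. Across all tested genes 7.97% fell and 7.06% rose (15.0% in either direction), against 4 and 0 of the 10 chains. The PlusDox libraries were all below the MinusDox libraries in 7 of the 10 chains and all above in 1, beside 17.6% and 17.4% of all genes compared in this way. The 7 include Col8a1, which reached the limit for testing only through its MinusDox libraries (means of 1.16 and 0.944 FPKM) and so is no support for a lower level with Dox. The median log2 fold change of the 10 chains was −0.53, and that of all tested genes was 0.0039. In bulk RNA, fewer cells that express a gene and less mRNA per cell cannot be told apart.

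**Figure D1:**
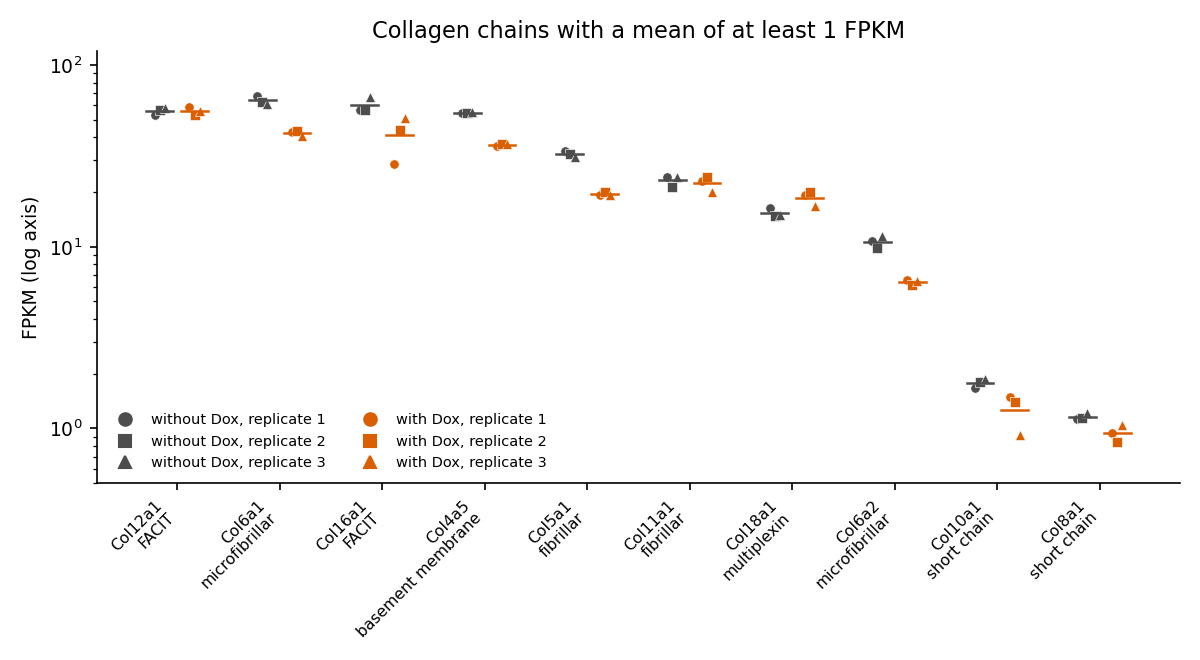
FPKM (log axis) of the 10 collagen chain genes that averaged 1 FPKM or more, in each MinusDox (grey) and PlusDox (orange) library. Points are libraries, shapes are replicates and horizontal lines are group means. The groups of Col6a1, Col6a2, Col5a1 and Col4a5 lie apart with little spread, whereas those of Col12a1 and Col11a1 overlap.

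Type VI collagen, the microfibrillar type, carried the most abundant chain to fall. Col6a1 (ENSMUSG00000001119, chromosome 10, 76708792 to 76726168, minus strand) encodes the α1(VI) chain. It stood at 68.0, 62.6 and 61.4 FPKM in MinusDox replicates 1 to 3 and at 42.7, 43.5 and 40.8 FPKM in PlusDox replicates 1 to 3. Every PlusDox value lay well below the lowest MinusDox value. The mean fell from 64.0 ± 3.54 to 42.3 ± 1.38 FPKM (SD, n = 3 per group), a log2 fold change of −0.59 (SE 0.0541, 95% interval −0.72 to −0.47, limma adjusted p = 7.31e-04). Between 2102 and 4033 reads stand behind each value.

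Col6a2 (ENSMUSG00000020241, chromosome 10, 76595762 to 76623630, minus strand), which encodes the α2(VI) chain, lies 85.2 kb from Col6a1 on the same strand. It stood at 10.7, 9.85 and 11.4 FPKM in MinusDox and at 6.52, 6.16 and 6.52 FPKM in PlusDox replicates. The groups did not overlap, and the log2 fold change was −0.73 (SE 0.0902, 95% interval −0.94 to −0.51, limma adjusted p = 0.00283). The ratio of Col6a1 to Col6a2 was 5.36 to 6.36 in MinusDox and 6.26 to 7.06 in PlusDox libraries, which overlap, so the mRNAs of these neighbors moved by amounts that their replicates do not separate.

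The remaining type VI chains were scarce. The α3(VI) chain completes the classical trimer, and its gene Col6a3 stood at 0.272, 0.146 and 1.31 FPKM in MinusDox and at 0.108, 0.0709 and 0.0813 FPKM in PlusDox replicates. All PlusDox values were lower, but its mean over all libraries was below 1 FPKM and MinusDox replicate 3 stood far above every other library. Col6a4 ranged from 0 to 0.424 FPKM, Col6a5 from 0 to 0.0354 FPKM, and Col6a6 was at 0. The ratio of Col6a1 to Col6a3 was at least 46.7 in every library.

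Col4a5 (ENSMUSG00000031274, chromosome X, 141475385 to 141689234, plus strand) was the basement membrane chain expressed in these cells. It encodes the α5(IV) chain, which assembles with α3(IV) and α4(IV), or with α6(IV), and is the chain mutated in X-linked Alport syndrome. Its FPKM were 54.7, 54.8 and 54.9 in MinusDox and 35.9, 36.6 and 36.6 in PlusDox replicates. Within each group the replicates were nearly equal, closer in MinusDox (coefficient of variation 0.237%) than read counting alone would give (1.46%). The mean fell from 54.8 ± 0.13 to 36.4 ± 0.449 FPKM (SD, n = 3), with a log2 fold change of −0.59 (SE 0.0391, 95% interval −0.68 to −0.50, limma adjusted p = 2.13e-04), on 2872 to 5878 reads.

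None of the chains known to assemble with α5(IV) came near it. Col4a6 ranged from 0.0393 to 0.186 FPKM, Col4a3 from 0.0328 to 0.0775 FPKM and Col4a4 from 0.0312 to 0.136 FPKM. The PlusDox values of Col4a3 all lay below its MinusDox values, on 4 to 11 reads per library. Col4a1 and Col4a2, the chains of the ubiquitous type IV trimer, ranged from 0.0965 to 0.31 and from 0.264 to 0.55 FPKM, with overlapping groups. The ratio of Col4a5 to Col4a6 was 456 to 1394 without Dox and 197 to 425 with Dox, resting on 3 to 23 Col4a6 reads per library.

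Col4a5 and Col4a6 lie head to head with 1309 bases between their starts, and their promoters are shown because only the Col4a5 mRNA was abundant. Each window runs from 250 bases before to 50 bases after the RefSeq start (GRCm38.p6), at chrX:141475169-141475468 (plus strand) and chrX:141474027-141474326 (minus strand). Neither holds CAGGTG or CACCTG, the E-box letters bound by ZEB proteins, on either strand, and capitals, which would have marked them, are therefore absent.

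Col4a5: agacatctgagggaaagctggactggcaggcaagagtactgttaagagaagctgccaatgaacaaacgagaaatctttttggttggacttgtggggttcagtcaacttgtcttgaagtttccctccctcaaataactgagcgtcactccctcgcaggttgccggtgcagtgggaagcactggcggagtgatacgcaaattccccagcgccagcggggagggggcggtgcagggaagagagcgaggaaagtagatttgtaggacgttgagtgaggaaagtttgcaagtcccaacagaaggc

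Col4a6: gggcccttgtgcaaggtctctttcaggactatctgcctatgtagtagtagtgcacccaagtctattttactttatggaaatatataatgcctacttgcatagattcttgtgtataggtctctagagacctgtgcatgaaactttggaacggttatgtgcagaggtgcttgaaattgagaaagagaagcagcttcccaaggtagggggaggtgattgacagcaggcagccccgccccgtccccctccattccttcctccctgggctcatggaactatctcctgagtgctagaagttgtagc

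CAGGTG and CACCTG are reverse complements of each other, so each search covers both strands. Either occurred in the 300-base promoter of 5 of the 35 chain genes that the RefSeq table holds (14.3%; Col16a1, Col8a1, Col4a4, Col6a5 and Col9a2) and of 22.6% of all 27025 genes in it. The promoters of the 4 chains that fell hold neither.

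Among the fibrillar chains, Col5a1 fell and Col11a1 did not pass the test. Col5a1 (ENSMUSG00000026837, chromosome 2, 27886425 to 28039514, plus strand) encodes α1(V), which starts and limits the growth of fibrils. Its FPKM were 33.6, 32.5 and 31.3 in MinusDox and 19.3, 20.1 and 19.3 in PlusDox replicates. The groups lay far apart, with means of 32.5 ± 1.19 and 19.6 ± 0.465 FPKM (SD, n = 3) and a log2 fold change of −0.73 (SE 0.0534, 95% interval −0.85 to −0.60, limma adjusted p = 3.28e-04), on 2006 to 4335 reads. Its exons overlap those of 2810430I11Rik on the opposite strand, which averaged 1.12 FPKM, and 3.28% of its transcript is shared with other genes.

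Col11a1 encodes α1(XI), the chain of cartilage fibrils that is closely related to α1(V) and can join it in mixed trimers. It stood at 24.3, 21.3 and 24.1 FPKM in MinusDox and 22.9, 24.1 and 20.0 FPKM in PlusDox replicates, which overlap. Its log2 fold change was −0.06, with a 95% interval of −0.27 to 0.15 (limma adjusted p = 0.706). Set side by side after their values were seen, Col5a1 was above Col11a1 in all 3 MinusDox libraries (ratios 1.38, 1.52 and 1.30) and below it in all 3 PlusDox libraries (0.845, 0.834 and 0.964). Because the pair was chosen in this way, the ratio was given no test.

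The other fibrillar chains were near the floor. Col5a2, whose product is the usual partner of α1(V), ranged from 0 to 0.0616 FPKM, and Col5a3 from 0 to 0.0523 FPKM. Type I collagen, the main collagen of fibroblasts and bone, was also low: Col1a1 ranged from 0.299 to 0.617 FPKM with overlapping groups. Col1a2 was 0.03, 0.244 and 0.0687 FPKM in MinusDox and 0.318, 0.609 and 0.506 FPKM in PlusDox replicates. All its PlusDox values were higher, on 2 to 60 reads per library. In limma without the filter its log2 fold change of 1.52 did not pass (adjusted p = 0.115). Col3a1, the type III chain, did not exceed 0.0432 FPKM, and the cartilage chain Col2a1 did not exceed 0.0636 FPKM. Col27a1 (0.381 to 0.779 FPKM) and Col11a2 (0.0611 to 0.691 FPKM) overlapped between the groups.

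**Figure D2:**
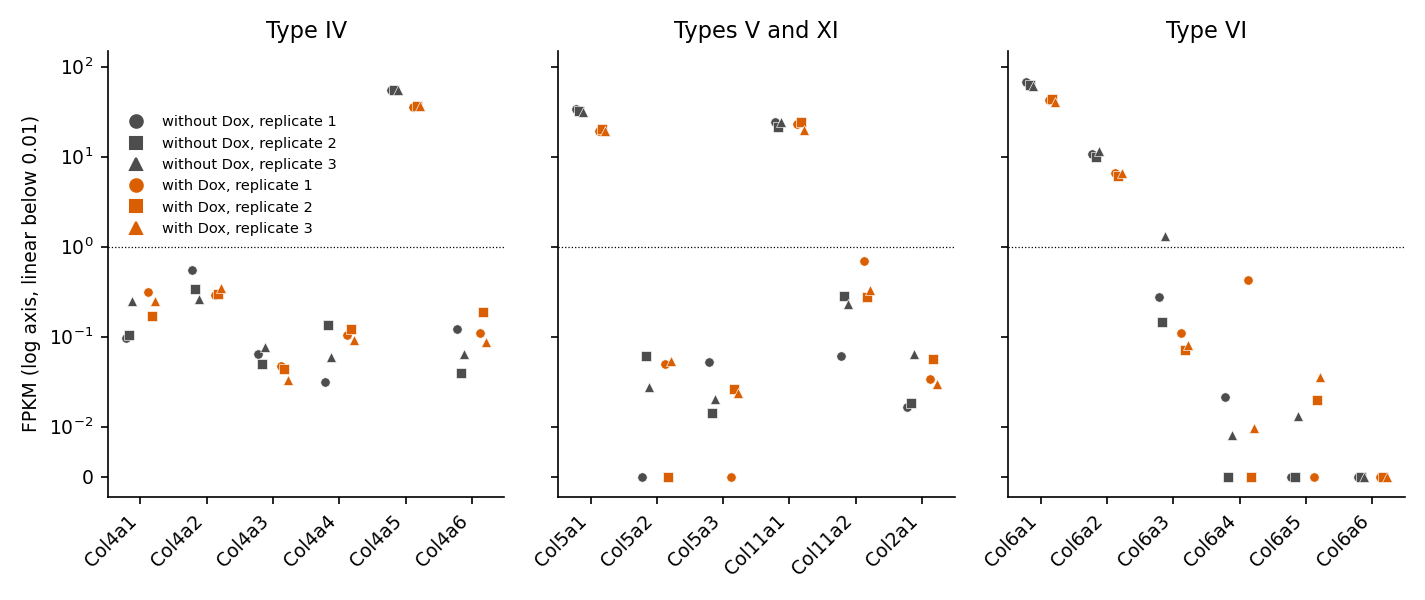
FPKM of the chains of types IV, V with XI, and VI in each library (log axis, linear below 0.01; Col2a1 is shown because its product can serve as the third chain of type XI). The dotted line is the limit of 1 FPKM for testing, and above it stand only Col4a5, Col5a1, Col11a1, Col6a1 and Col6a2, apart from Col6a3 in MinusDox replicate 3.

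The FACIT group held the chain with the highest mean over the 6 libraries. This chain gene, Col12a1, whose product binds fibril surfaces and links them to other matrix proteins, stood at 53.5, 56.5 and 57.7 FPKM in MinusDox and 58.5, 53.2 and 56.0 FPKM in PlusDox replicates. The groups overlap with equal means of 55.9 FPKM (SD 2.19 and 2.68, n = 3), and the 95% interval of the log2 fold change was −0.12 to 0.12 (limma adjusted p = 0.999), on 7617 to 11549 reads. A change as large as that of Col5a1 lies outside that interval.

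Col16a1, a FACIT chain found near cells and small fibrils, varied more. Its MinusDox replicates were at 57.0, 57.0 and 66.9 FPKM and its PlusDox replicates at 28.6, 44.1 and 51.1 FPKM. All PlusDox values were lower, but PlusDox replicate 1 was far below the others, and the coefficient of variation with Dox was 27.9% where read counting alone would give 1.88%. Its log2 fold change of −0.58 (SE 0.201, 95% interval −1.06 to −0.11) did not pass (limma adjusted p = 0.102). Without PlusDox replicate 1 it was −0.34 (limma adjusted p = 0.0914). The annotation lists 13 transcripts of Col16a1, and FPKM sums over them.

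The FACIT chains below the limit were Col9a3 and Col22a1 and, at means under 0.1 FPKM, Col9a1, Col9a2, Col14a1, Col20a1 and Col19a1. Col9a3 ranged from 0.174 to 1.69 FPKM and Col22a1, a chain of tissue junctions, from 0.0242 to 0.96 FPKM. Both ranges were wide within each group. Exons of Col9a3 overlap those of the opposite-strand gene Tcfl5, which averaged 0 FPKM.

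Col18a1 encodes a multiplexin of basement membranes whose end piece is endostatin, and its direction was opposite to that of the chains that fell. It stood at 16.4, 14.8 and 14.9 FPKM in MinusDox and 19.2, 20.0 and 16.8 FPKM in PlusDox replicates, all PlusDox values being higher. Its log2 fold change of 0.28 (SE 0.085, 95% interval 0.08 to 0.48) did not pass (limma adjusted p = 0.0734). It lies 326 kb from Col6a1 on chromosome 10. The other multiplexin, Col15a1, was at 2.06 FPKM in MinusDox replicate 1 and 0.202 to 0.543 FPKM in the other libraries.

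The short-chain collagens form hexagonal networks, and both tested members stood close to the limit. Col10a1, the chain of growth-plate cartilage, had MinusDox values of 1.66, 1.81 and 1.88 FPKM and PlusDox values of 1.49, 1.40 and 0.916 FPKM. The groups did not overlap, and the log2 fold change of −0.48 did not pass (limma adjusted p = 0.293), on 39 to 93 reads. Without PlusDox replicate 3 it was −0.28, and with a pseudocount of 1 it was −0.30. Its exons overlap those of Nt5dc1 on the opposite strand, which averaged 20.6 FPKM, and whether the counting used strand is not given in the sources used here. Col8a1, a chain of the matrix under endothelium, had MinusDox values of 1.12, 1.14 and 1.21 FPKM and PlusDox values of 0.942, 0.84 and 1.05 FPKM. Again the groups did not overlap and the log2 fold change of −0.27 did not pass (limma adjusted p = 0.600). With a pseudocount of 1 it was −0.15. Its partner Col8a2 stood at 0 to 0.0935 FPKM.

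No transmembrane or anchoring chain reached the limit. Of the 4 transmembrane chains, Col17a1, a hemidesmosome component of basal epithelia, ranged from 0.0132 to 0.584 FPKM with overlapping groups. Col25a1 and Col23a1 had means under 0.1 FPKM and Col13a1 was at 0. Col7a1, which forms the anchoring fibrils under epithelia, ranged from 0.311 to 0.731 FPKM, also with overlap.

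**Figure D3:**
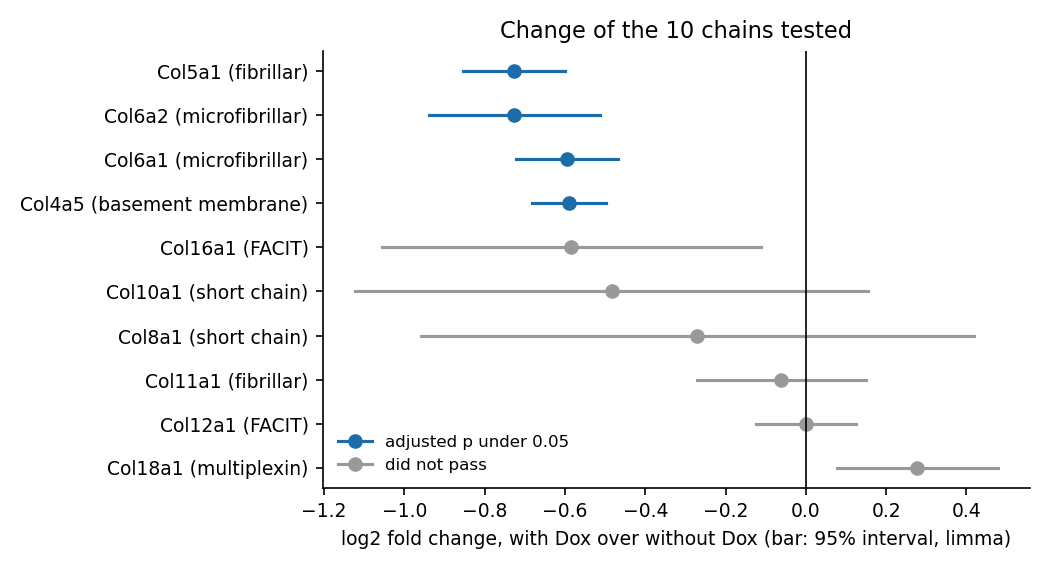
Log2 fold change (PlusDox over MinusDox) of the 10 tested chains with its 95% interval from limma; blue marks an adjusted p under 0.05. The 4 blue chains lie between −0.59 and −0.73, the interval of Col12a1 is centered on 0, and Col18a1 is the only chain with an interval above 0.

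Over the 34 chains below the limit, all libraries summed to 4.83 to 7.17 FPKM, at most 2.48% of the collagen total. Of these, 13 had a mean of at least 0.1 FPKM, 17 were above 0 with a lower mean and 4 were at 0. In the fit without the filter, 0 of the 30 detected low chains passed the adjusted threshold in limma, and 1 of them, Col1a2, had an unadjusted p under 0.05. Several of them varied within a group far beyond read counting. In MinusDox libraries the coefficient of variation of Col6a3 was 111%, where counting alone would give 18.6%, and that of Col15a1 was 98.1%, where counting would give 16.1%.

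Added over the 44 chains, collagen mRNA was 326 ± 7.2 FPKM without Dox and 250.4 ± 7.26 FPKM with Dox (SD, n = 3). The microfibrillar sum was 75.3 ± 3.35 FPKM and 49.0 ± 1.33 FPKM, the basement membrane sum 55.5 ± 0.116 and 37.2 ± 0.424 FPKM, and the fibrillar sum 57.2 ± 1.79 and 43.8 ± 2.57 FPKM. These groups do not overlap. The FACIT sum was 118 ± 7.89 and 98.4 ± 9.89 FPKM, again without overlap, and the multiplexin sum was 16.3 ± 1.86 and 19.0 ± 1.57 FPKM, with overlap. The FACIT difference lay mainly in Col16a1, which averaged 60.3 and 41.2 FPKM and did not pass the test. Col12a1 averaged 55.9 FPKM in both groups. As shares of the total, microfibrillar chains made up 22.3% to 24.1% without Dox and 18.7% to 20.6% with Dox, basement membrane chains 16.7% to 17.4% and 14.7% to 15.2%, and multiplexins 4.57% to 5.64% and 6.77% to 8.09%. The FACIT share was 34.05% to 38.1% without Dox and 36.6% to 42.7% with Dox, which overlap, the mean being higher with Dox although the FACIT sum was lower. The mean fibrillar share was 17.5% in both groups. These sums describe the libraries and were not tested.

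**Figure D4:**
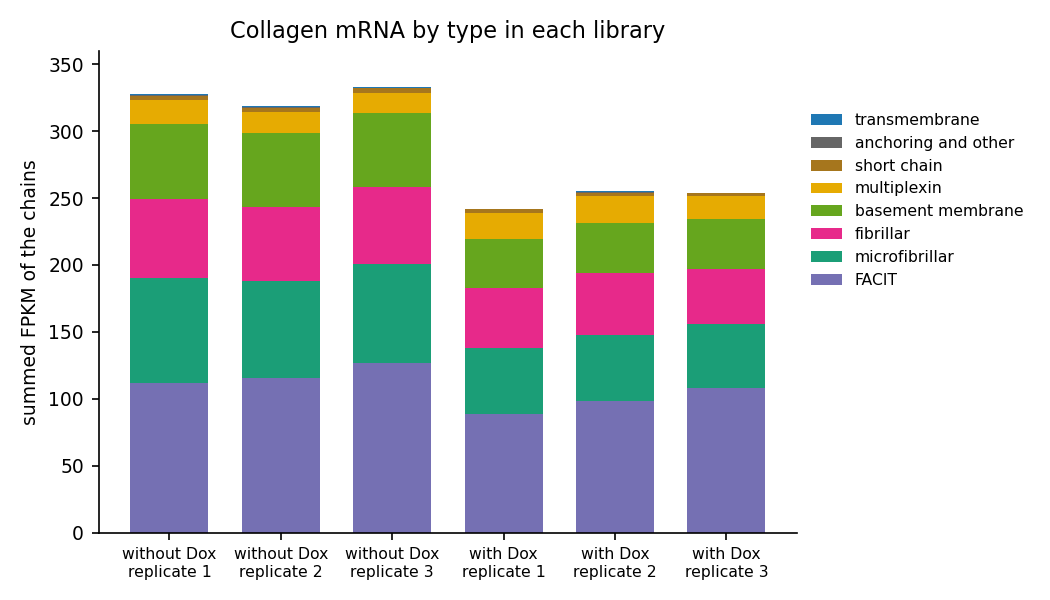
Summed FPKM of the collagen chain genes in each library, stacked by type from 0. The 3 PlusDox bars are shorter than the 3 MinusDox bars, chiefly in the microfibrillar, basement membrane, fibrillar and FACIT layers. The FACIT layer differs mainly through Col16a1, which did not pass the test.

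Genes that act on collagen were taken from lists by role. The counts of each list are to be read beside all tested genes, of which 7.97% fell and 7.06% rose. Chains are hydroxylated, glycosylated, folded, exported and trimmed before they assemble. Of 28 genes for these steps in the table, 21 were tested, 10 fell, 2 rose and 9 did not pass. Crtap, a subunit of the complex that 3-hydroxylates prolines in procollagen, fell the most of these, from 96.7, 111 and 103 FPKM to 36.7, 34.8 and 25.1 FPKM (log2 fold change −1.70, limma adjusted p = 5.36e-04). Lepre1, which encodes the hydroxylase of that complex and is named after its values were seen, went from 37.7 to 41.4 FPKM to 30.2 to 31.3 FPKM (−0.36, limma adjusted p = 0.00499). Adamts14, a protease that removes procollagen amino-terminal ends, fell by 0.94 on the log2 scale, and Colgalt1, which adds galactose to hydroxylysine, fell by 0.67. The prolyl hydroxylase genes Leprel1 (0.44) and P4ha2 (0.40) rose, in log2 fold change.

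Of the 6 crosslinking genes 3 were tested and all passed. The lysyl oxidases Loxl3 (22.3 to 23.4 against 14.9 to 15.5 FPKM, log2 fold change −0.60) and Lox (22.2 to 24.8 against 17.2 to 18.8 FPKM, −0.37) fell. The transglutaminase Tgm2 rose, from 176 to 186 FPKM to 199 to 214 FPKM (0.19).

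Of 11 genes for matrix proteins that regulate fibrils, 5 were tested, 3 fell and 1 rose. Tgfbi, Tnxb and Sparc, a collagen-binding chaperone of the matrix, fell by 0.92, 0.70 and 0.25 on the log2 scale. Thbs1, which encodes thrombospondin 1, rose from 237 to 242 FPKM to 420 to 425 FPKM (log2 fold change 0.82, limma adjusted p = 8.78e-06). Among 11 collagen receptors 7 were tested and only Cd44, best known as a hyaluronan receptor, passed, at a log2 fold change of −0.15. The shared integrin subunit Itgb1 was not among those that passed.

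Of 10 collagen-degrading enzymes, only Mmp3 averaged 1 FPKM or more and was tested. Mmp3, stromelysin 1, fell from 178, 153 and 169 FPKM to 48.4, 47.3 and 40.8 FPKM (log2 fold change −1.87, limma adjusted p = 4.48e-05). Mmp1a, an interstitial collagenase below the limit and named after its values were seen, had MinusDox values of 1.06, 0.924 and 1.40 FPKM and PlusDox values of 0.0861, 0.0858 and 0.0758 FPKM.

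Of 21 transcription factors and TGF-β pathway genes 20 were tested, 6 fell and 3 rose. Zeb2 (log2 fold change −1.81), Zeb1 (−0.98) and Snai1 (−0.28) fell the most of these, and Ctgf (0.26), Tgfbr2 (0.23) and Tgfb3 (0.15) rose. Over the 6 lists 57 genes were tested, 23 fell and 7 rose, to be read beside the 7.97% and 7.06% of all tested genes. The 23 include Zeb1 and Zeb2, which also served as the check of the induction.

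**Figure D5:**
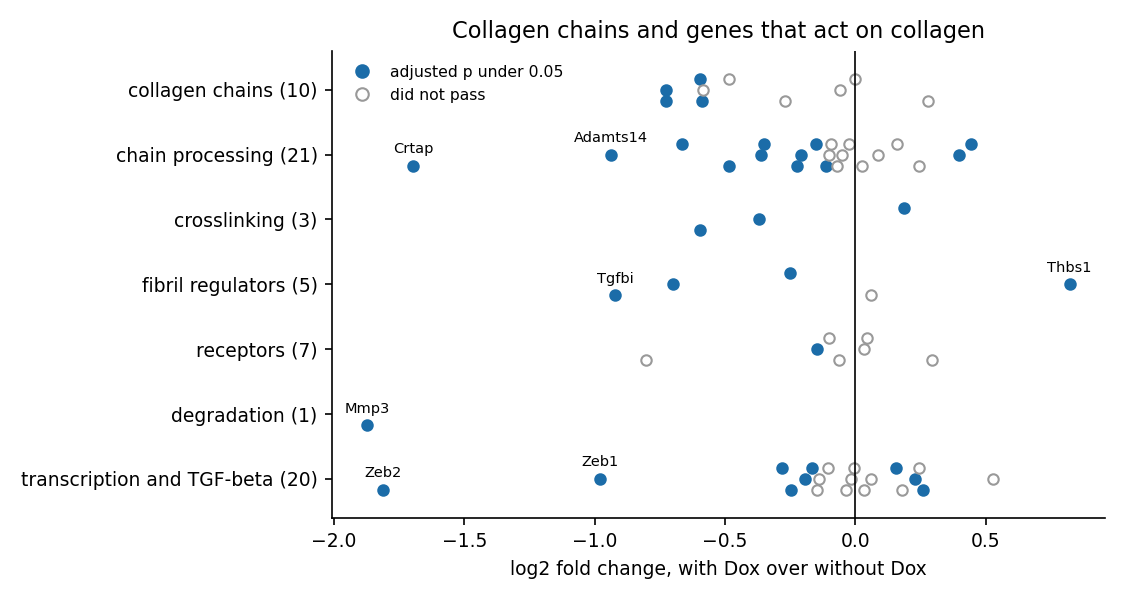
Log2 fold change (PlusDox over MinusDox) of the tested collagen chains and of the tested genes in the 6 lists of genes that act on collagen, with the number tested in parentheses. Filled points passed an adjusted p of 0.05; Crtap, Mmp3, Zeb2 and Zeb1 lie farthest to the left and Thbs1 farthest to the right.

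Markers of cell types that often supply collagen were read in the same libraries. Of 7 fibroblast markers, Pdgfrb (log2 fold change −1.06) and Pdgfra (−0.27) were tested and both fell, and the list summed to 50.5 to 52.7 FPKM without Dox and 29.9 to 32.3 FPKM with Dox. Dcn stood at 0.212 to 0.896 FPKM, and Lum and Dpt were at 0 in every library. Of 5 mesenchymal markers 3 were tested and Vim (−0.35) and S100a4 (−0.59) fell, while Acta2 was at 0 throughout. Cdh2 was the tested mesenchymal marker that did not pass (−0.06, limma adjusted p = 0.342). The part of these markers in the fall of the 4 chains was not tested. Leukocyte markers (7 genes) summed to 7.53 to 13.9 FPKM without and 7.78 to 9.22 FPKM with Dox, with Emr1 and Cd3e at 0, and endothelial markers (5 genes) to 4.47 to 5.16 and 4.20 to 4.59 FPKM. Most of these sums came from the 3 tested genes of those lists. They were Cd68 (6.31 to 11.3 FPKM), Lyz2 (0.94 to 2.65 FPKM) and Cdh5 (3.95 to 4.66 FPKM), and none of them passed.

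Over all 10794 tested genes with an annotated 3′ UTR, 17.3% of those with a CAGTATT match fell and 7.33% of those without it. Among the 10 chains, 2 of the 4 with a match (Col5a1 and Col4a5) and 2 of the 6 without it (Col6a1 and Col6a2) fell. In its coding sequence, Col12a1 was the only tested chain with a match, which is the longer form ending in A. Of the same 10794 tested genes, 8.93% held a match in the coding sequence.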

How the data were processed

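Single 50 bp reads of mRNA (stranded library kit) were mapped by the authors with gSNAP to GRCm38.p6, beside which an FVB/NJ assembly is named, and the deposited values are FPKM estimated with Cufflinks. Versions, the annotation and the strand setting are not given in the sources used here. The authors' group means, fold changes, p-values and q-values in the same table were not used.

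The table has 43611 rows. Where an identifier was repeated, its row of largest mean was used (63 rows dropped), and a placeholder in 6 places of 4 genes, no collagen among them, was treated as missing. Genes averaging 1 FPKM or more were compared on log2(FPKM + 0.1) by limma 3.58.1 in R 4.3.3 (lmFit, eBayes with trend, group as the only term, two-sided, Benjamini-Hochberg). Dividing by length and depth removes the read number, so it was estimated from the steps of low FPKM values (93.8% to 96.4% of them within 0.1 of a whole read). In each library the step size and fragment length were those that made this share largest, so the share is no independent check. Reads per gene are therefore estimates. The model was tested on simulated data: of 200 among 12875 genes changed by 1 log2 unit, 76.5% were called, and 3.77% of calls were unchanged genes. Those values were drawn independently from normal distributions. In the data 15.0% of genes passed, and the 4 chains that fell changed by less than 1 log2 unit. The simulated shares therefore do not describe the calls made here.

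All chains with a mean of at least 1 FPKM are named, others with a mean of at least 0.1 FPKM by their range, and up to 3 passing genes per direction of each list, plus Zeb1, Zeb2 and Mir200c. The chains, the lists and the tests were chosen with earlier results of these data known. Gene positions and 3′ UTRs are those of GENCODE M21, and shared sequence was sought with BLAST 2.17.0 (95% identity, 50 bases or more). Python 3.11.15, pandas 2.3.3 and matplotlib 3.10.9 were used. Alternatives were a pseudocount of 0.01 or 1, a minimum of 5 FPKM or none, other scalings, limma without trend and an unmoderated model. Further alternatives were the replicate block, the sum of the rows of a symbol and the omission of each library.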

Additional observations from a re-analysis of the deposited data

How the results depend on the processing

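Under all 16 alternatives, 6 of which left out a library, 4 chains fell and none rose past the threshold. Among the 16, summing the rows of a symbol could not alter the fold changes of the chains, as none has a repeated row. Col4a5, Col5a1, Col6a1 and Col6a2 passed in 16 of 16, with adjusted p up to 0.00388, 0.00516, 0.0133 and 0.0154. The other 6 tested chains passed in none, and Col10a1 and Col8a1 could not be tested at a minimum of 5 FPKM. Col16a1 had a log2 fold change of −0.34 without PlusDox replicate 1 and −0.76 without PlusDox replicate 3, and Col10a1, −0.48 with all libraries, had −0.28 without PlusDox replicate 3. Col12a1, near 0, changed sign with quantile normalization (−0.0073) and ranged from −0.033 to 0.036 when a library was left out. Col11a1 ranged from −0.12 to 0.016, the last without PlusDox replicate 3. The count of all genes past the threshold was 1935 with all libraries and 1069 to 1384 with 1 left out, and it was over 1.5 times lower without MinusDox replicate 2 or any PlusDox replicate, with fewer libraries in the fit. Replicate numbers are shared by the groups. To see whether same-numbered libraries deviate together, the group mean of each gene was subtracted from its log2 values. The correlations of these deviations between same-numbered libraries were −0.0076 to 0.036, none over 0.1. Group was the only term in the main fit. These correlations cannot show whether same-numbered libraries were prepared together. With the replicate block, 4 chains fell, 0 rose and 1337 genes passed. Scalings moved the median of all genes by less than 0.1. A permutation of 3 against 3 libraries cannot give a p below 0.1, so limma alone was used. Low read numbers limit the chains near 0, while others below the limit, such as Col6a3 and Col15a1, varied between replicates by more than counting gives.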
